A study of Mus musculus with 12 samples.

Results

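The genes of the Qa region of the mouse major histocompatibility complex (MHC) were examined in spleens of PG-immunized and naïve BALB/cByJ and BALB/cJ mice. PG is human cartilage proteoglycan aggrecan, the antigen of proteoglycan-induced arthritis. The members were the probe sets, each a group of short probes read as 1 measurement, whose annotation names any of H2-Q1, H2-Q2, H2-Q4, H2-Q5, H2-Q6, H2-Q7, H2-Q8, H2-Q9 and H2-Q10. There were 9 such probe sets of 45037 tested. They named 8 of the 9 genes, out of 19324 genes named on the array, and no probe set named H2-Q1. Of the 9, 4 named 1 gene and 5 were shared with other genes, so a shared probe set is described as a probe set and not as a gene. The region was chosen by the colony differences of these same arrays, in which probe sets of H2-Q6 and H2-Q8 were already known to differ. The differences between the colonies, with their intervals and calls, are therefore a description from which no support is drawn. Immunization, which did not enter the choice, was tested.

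Spleen RNA of 12 mice was hybridized to Affymetrix whole-genome mouse arrays, 3 animals in each of 4 groups: PG-immunized BALB/cByJ, PG-immunized BALB/cJ, naïve BALB/cByJ and naïve BALB/cJ. All were females of BALB/c sublines, which carry the H-2d haplotype of the MHC, and no transgene or deletion was introduced. Immunized mice had received 1 intraperitoneal injection of PG (100 µg protein per the labels) with 2 mg of the adjuvant dimethyldioctadecylammonium bromide 12 days before the spleen was taken, before any arthritis, and naïve mice were untreated. The mice were age-matched; the methods give 24 to 26 weeks for the colony study and no separate age for the array mice.

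Class I molecules consist of a heavy chain, β2-microglobulin and a short peptide, and the classical ones (H2-K, H2-D and H2-L) show peptides to CD8 T cells. The Qa region lies next to H2-D1 on chromosome 17 and holds a row of closely related nonclassical heavy chain genes. H2-Q6 to H2-Q9 are the genes of Qa-2, an antigen of lymphocytes that is held in the membrane by a glycosylphosphatidylinositol (GPI) anchor and that is known to vary among inbred strains. H2-Q4 encodes Qb-1, a secreted molecule, and H2-Q10 encodes a class I molecule that the liver secretes into serum. H2-Q5 is a transcribed pseudogene in the reference assembly, whose strain, C57BL/6J, carries another MHC haplotype than BALB/c. The deposited values are log2 differences from the median array, so they carry no signal level. For this reason it is not known which probe sets were above background, and the presence of spleen cell markers could not be checked.

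The relatedness of these genes extends to their promoters. Upstream sequences were available for 5 of the genes (RefSeq, GRCm38.p6, C57BL/6J). The 250 bases before the start of H2-Q4 and H2-Q6, which are named by the probe sets with the widest colony difference, are shown with those of H2-Q7, which is named by a probe set with a small one. The capitals mark the longest run of bases that is identical in these 3 sequences, which has 32 bases.
H2-Q4, chr17:35379367-35379616, plus strand: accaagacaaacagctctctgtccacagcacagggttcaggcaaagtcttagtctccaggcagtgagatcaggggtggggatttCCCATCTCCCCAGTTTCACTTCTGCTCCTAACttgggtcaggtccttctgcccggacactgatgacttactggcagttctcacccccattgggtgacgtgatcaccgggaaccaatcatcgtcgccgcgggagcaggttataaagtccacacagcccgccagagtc
H2-Q6, chr17:35424600-35424849, plus strand: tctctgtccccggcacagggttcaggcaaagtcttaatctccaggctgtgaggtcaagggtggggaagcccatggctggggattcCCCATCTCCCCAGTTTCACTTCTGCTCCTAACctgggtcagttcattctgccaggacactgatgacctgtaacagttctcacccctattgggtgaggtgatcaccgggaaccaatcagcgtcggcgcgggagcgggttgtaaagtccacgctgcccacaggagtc
H2-Q7, chr17:35438905-35439154, plus strand: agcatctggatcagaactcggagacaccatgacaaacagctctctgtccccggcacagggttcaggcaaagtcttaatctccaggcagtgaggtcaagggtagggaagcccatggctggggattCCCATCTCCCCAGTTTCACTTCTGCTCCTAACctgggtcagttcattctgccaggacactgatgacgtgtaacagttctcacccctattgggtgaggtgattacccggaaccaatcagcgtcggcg
Over their aligned bases, 97.6% were identical between H2-Q6 and H2-Q7, 90.5% between H2-Q4 and H2-Q6, and 90.4% between H2-Q4 and H2-Q7. The run in capitals was found on either strand in 4 of 32851 upstream sequences of the same length, or 0.0122%, and these were H2-Q4, H2-Q6, H2-Q7 and H2-Q10. H2-Q10, whose probe set differed by -0.04 and 0.02 between the colonies in immunized and naïve mice, thus held it too. The CCAAT box, searched as CCAAT on both strands, occurred at 2 places in each of H2-Q4, H2-Q6 and H2-Q7, at 1 place in H2-Q2 and not in H2-Q10, and in 33.8% of all sequences. The TATA box, searched as TATAAA on both strands, was found in H2-Q2, H2-Q4 and H2-Q10, not in H2-Q6, and in 12.4% of all. Both CCAAT boxes lay nearer to the annotated start in H2-Q7 than in H2-Q4 and H2-Q6. The place of the TATA box of H2-Q4 therefore falls beyond the H2-Q7 window, and H2-Q7 could not be compared for it. These matches describe the reference strain, and the BALB/c sequences were not examined.

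Probe sets of H2-Q6, H2-Q8 and H2-Q4 were several times lower in the BALB/cByJ than in the BALB/cJ colony, in immunized and in naïve mice. The probe set shared by H2-Q6, H2-Q8 and H2-Q4 was at -1.39, -2.19 and -1.80 in immunized BALB/cByJ replicates 1, 2 and 3, against 1.68, 1.21 and 1.86 in immunized BALB/cJ. In naïve mice it was at -1.21, -1.99 and -1.79 in BALB/cByJ, against 1.70, 1.57 and 1.25 in BALB/cJ. All 6 BALB/cByJ arrays were low and all 6 BALB/cJ arrays were high, with a gap between the colonies of 2.60 in immunized and 2.46 in naïve mice. The log2 difference was -3.38 in immunized mice (95% confidence interval -3.89 to -2.87) and -3.17 in naïve mice (-3.68 to -2.66), the second being 8.99-fold lower in BALB/cByJ. The standard error (SE), from a limma fit with 1 mean per group on all 12 arrays, was 0.237 for each.

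The probe set of H2-Q6 and H2-Q8 alone separated the colonies in the same way. It was at -1.51, -1.48 and -1.62 in immunized BALB/cByJ, against 1.16, 0.98 and 1.26 in immunized BALB/cJ. In naïve mice it was at -0.97, -1.56 and -1.83 in BALB/cByJ, against 1.27, 1.09 and 0.97 in BALB/cJ. The colonies were 2.46 apart in immunized and 1.94 apart in naïve mice at their nearest arrays. The log2 difference was -2.67 (SE 0.172, 6.35-fold lower) in immunized and -2.56 (SE 0.172, 5.90-fold lower) in naïve mice. The spread was widest in naïve BALB/cByJ, with an SD of 0.442 against 0.0732 in immunized BALB/cByJ (n = 3 each). In naïve BALB/cByJ, replicate 1 was the highest array for both probe sets of H2-Q6 and H2-Q8. Replicate 1 also had the highest pancreatic acinar markers, whose median was 1.71 there and 0.37 or lower elsewhere, and their part in the result was not tested. Without this array and 3 arrays rich in pancreatic or heat shock transcripts (immunized BALB/cByJ replicate 3, immunized BALB/cJ replicates 2 and 3), the naïve differences of these probe sets were -3.39 and -2.80. Within single arrays, the first of these probe sets minus the second was -0.71 to 0.12 in immunized BALB/cByJ and 0.24 to 0.60 in immunized BALB/cJ, and -0.43 to 0.04 in naïve BALB/cByJ and 0.28 to 0.48 in naïve BALB/cJ, so the probe set that also names H2-Q4 had the wider step.

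Of 2 probe sets that name H2-Q5 only, 1 was lower in BALB/cByJ, by a smaller amount. This probe set, called H2-Q5 probe set A here, was at -0.35, -0.21 and -0.27 in immunized BALB/cByJ, against 0.80, 0.60 and 0.72 in immunized BALB/cJ. In naïve mice it was at -0.40, -0.44 and -0.53 in BALB/cByJ, against 0.64, 0.52 and 0.21 in BALB/cJ. The colonies did not overlap, and the log2 difference was -0.98 (SE 0.106, 1.98-fold lower) in immunized and -0.91 (SE 0.106, 1.88-fold lower) in naïve mice. The other, H2-Q5 probe set B, was at -0.01 (95% confidence interval -0.21 to 0.20) in immunized and -0.06 (-0.27 to 0.15) in naïve mice. The probe sets of this gene therefore disagreed.

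**Figure D1:**
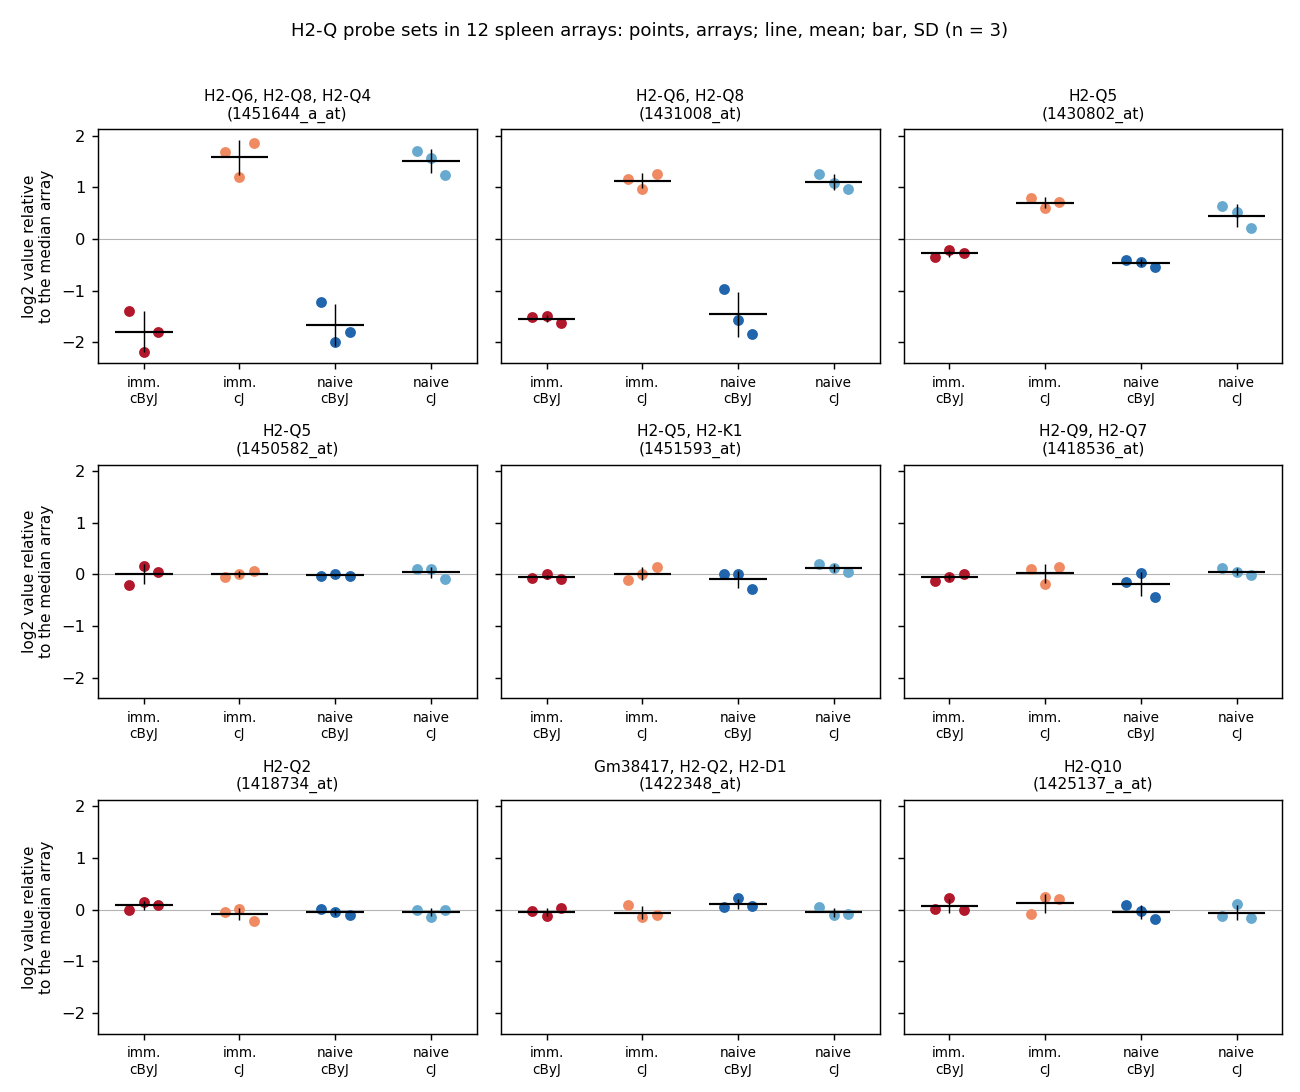
Values of the 9 H2-Q probe sets in the 12 arrays (vertical axis, log2 value relative to the median array), by group along the horizontal axis. Points are arrays, lines group means and bars the SD (n = 3). In the top row every BALB/cByJ array lies below every BALB/cJ array, and the other 6 probe sets stay between -0.44 and 0.25.

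The other 6 probe sets lay between -0.44 and 0.25 in every array. The probe set shared by H2-Q7 and H2-Q9 differed between the colonies by -0.07 (95% confidence interval -0.33 to 0.19) in immunized mice. In naïve mice it was at -0.15, 0.03 and -0.44 in BALB/cByJ, against 0.13, 0.04 and -0.01 in BALB/cJ, so the groups overlapped. The difference was -0.24 (-0.50 to 0.02). H2-Q7 and H2-Q9 are Qa-2 genes as H2-Q6 and H2-Q8 are. The region was chosen with the differences of H2-Q6 and H2-Q8 known, so a contrast between these probe sets was not tested. H2-Q10 was at -0.04 (-0.29 to 0.20) in immunized and 0.02 (-0.23 to 0.26) in naïve mice, and the median of 6 liver marker genes stayed between -0.08 and 0.11 in all arrays. H2-Q2 was at 0.17 (-0.01 to 0.35) and -0.00 (-0.18 to 0.18) in the same order. A probe set shared by H2-Q2, H2-D1 and Gm38417 was at 0.01 (-0.18 to 0.20) and 0.17 (-0.03 to 0.36). A probe set shared by H2-Q5 and the classical gene H2-K1 was at -0.07 (-0.27 to 0.14) and -0.22 (-0.42 to -0.01). Since the signal level is not known, whether these 6 probe sets were above background is not known either.

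The immunized arrays fell into 2 runs of sample numbers, with 2 BALB/cByJ and 1 BALB/cJ array numbered 29 to 33 and 1 BALB/cByJ and 2 BALB/cJ arrays numbered 48 to 50. Within these runs the colony difference was -3.47 and -3.34 for the probe set of H2-Q6, H2-Q8 and H2-Q4, -2.65 and -2.74 for that of H2-Q6 and H2-Q8, and -1.08 and -0.93 for H2-Q5 probe set A. With the run as a covariate it was -3.41 and -2.69 for the 2 probe sets of H2-Q6 and H2-Q8.

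In immunized mice 3 of the 9 probe sets were called lower and none higher (Benjamini-Hochberg adjusted p under 0.05 from limma), against 0.0444% of all probe sets called lower. In naïve mice 3 were called lower and none higher, against 1.71%. A difference of more than 2-fold in the downward direction was seen for 2 of the 9 in each state, against 0.0555% of all probe sets in immunized and 0.149% in naïve mice. In immunized mice 3 of the 9 had non-overlapping colonies with BALB/cByJ lower, against 6.88% of all, and in naïve mice 4 did, against 11.9%. The fourth was the probe set of H2-Q5 and H2-K1, with a gap of 0.03. The median difference of the 9 was -0.069 in immunized and -0.216 in naïve mice, beside medians of -0.0067 and -0.0084 over all probe sets in the same order. Related lists had medians of -0.10 and -0.23 (classical class I), -0.12 and -0.23 (MHC class II) and -0.11 and -0.07 (class I of the T and M regions). The naïve median was thus not particular to the members. As this contrast led to the choice of the genes, the counts of the 9 describe the members only.

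**Figure D2:**
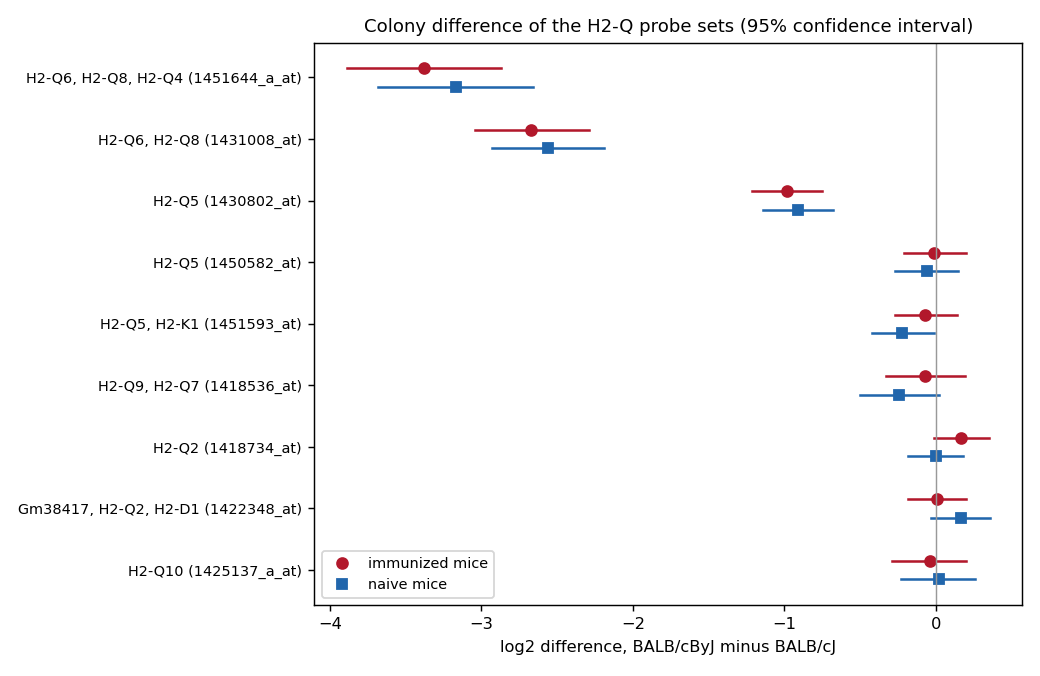
Log2 difference BALB/cByJ minus BALB/cJ of the 9 H2-Q probe sets (horizontal axis), in immunized mice (circles) and naïve mice (squares), with bars for the 95% confidence interval of the limma fit. The top 3 probe sets lie between -3.38 and -0.91, and the other 6 between -0.24 and 0.17.

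Immunization did not move any of the 9 probe sets past the test. In BALB/cByJ mice limma called 0 of the 9, against 0.0511% of all probe sets, and 0 had an unadjusted p under 0.05, against 8.3%. The analysis of variance that the methods name also called 0. The differences between immunized and naïve mice ranged from -0.16 to 0.18, with adjusted p from 0.648 to 0.971. In 2 of the 9 the immunized and naïve groups did not overlap, against 12.1% of all: 1 of H2-Q5 was higher in immunized mice and that of H2-Q2, H2-D1 and Gm38417 was lower. In BALB/cJ mice limma called 0 of the 9, against 0.0% of all probe sets, and 1 had an unadjusted p under 0.05, against 9.19%. The analysis of variance again called 0. In 0 of the 9 were the groups without overlap, against 17.0% of all. The differences ranged from -0.11 to 0.25, with adjusted p from 0.515 to 0.994. With both colonies together limma called 0, against 0.0466%, and 1 had an unadjusted p under 0.05, against 9.91%.

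The member with the unadjusted p under 0.05 was H2-Q5 probe set A. In BALB/cJ mice it was at 0.80, 0.60 and 0.72 after immunization, against 0.64, 0.52 and 0.21 in naïve mice, and the groups overlapped. The difference was 0.25 (SE 0.106, adjusted p = 0.515 from limma). In BALB/cByJ mice it was at -0.35, -0.21 and -0.27 after immunization, against -0.40, -0.44 and -0.53, without overlap. The difference was 0.18 (SE 0.106, adjusted p = 0.669). Over both colonies it was 0.21 (SE 0.0748, adjusted p = 0.393), and it was higher than the naïve median of its colony in all 6 immunized arrays. It thus failed the correction for 45037 probe sets.

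For the probe set of H2-Q6, H2-Q8 and H2-Q4 the immunization difference was -0.13 (95% confidence interval -0.64 to 0.38) in BALB/cByJ and 0.08 (-0.43 to 0.60) in BALB/cJ mice. That of H2-Q6 and H2-Q8 was -0.08 (-0.46 to 0.29) and 0.02 (-0.35 to 0.40) in the same order. That of H2-Q7 and H2-Q9 was 0.13 (-0.13 to 0.39) and -0.03 (-0.29 to 0.23). A change of up to these bounds remains possible with 3 arrays per group. Neutrophil markers stood apart by immunization, with medians of -0.12 to 1.09 in immunized against -1.10 to -0.71 in naïve BALB/cByJ and 0.44 to 0.95 in immunized against -0.74 to 0.12 in naïve BALB/cJ mice, and their part in these values was not tested.

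**Figure D3:**
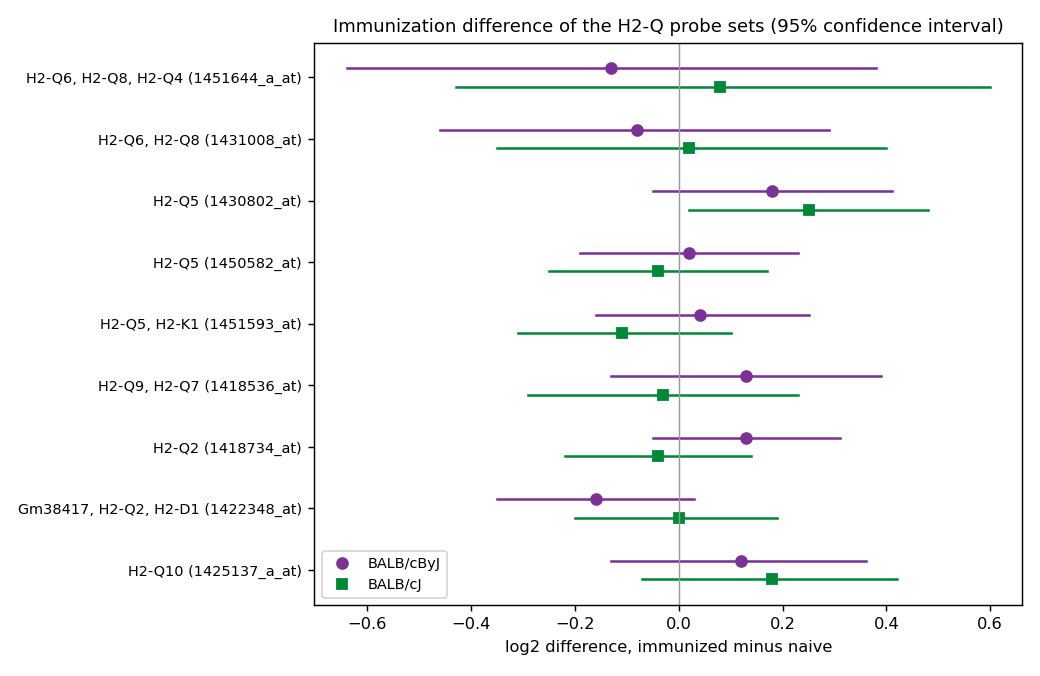
Log2 difference immunized minus naïve of the 9 H2-Q probe sets (horizontal axis), in BALB/cByJ (circles) and BALB/cJ mice (squares), with bars for the 95% confidence interval of the limma fit. The points lie between -0.16 and 0.25, and the interval of H2-Q5 (upper of its 2 single-gene rows) in BALB/cJ is the one that leaves out 0.

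The responses of the colonies did not differ by the test. For the difference of responses, BALB/cByJ minus BALB/cJ, limma called 0 of the 9, against 0.0% of all probe sets, and 0 had an unadjusted p under 0.05, against 7.59%. The values ranged from -0.21 to 0.17, with adjusted p from 0.776 to 0.958. For the probe set of H2-Q6, H2-Q8 and H2-Q4 it was -0.21 (95% confidence interval -0.94 to 0.52) and for that of H2-Q6 and H2-Q8 -0.11 (-0.63 to 0.42). Among the 4 groups, the levels of the 3 probe sets lower in BALB/cByJ therefore fell into a low pair, the BALB/cByJ groups, and a high pair, the BALB/cJ groups. Within each pair the immunized and naïve levels did not differ past the test.

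No gene next to the Qa region had a colony difference of the size seen for the probe sets of H2-Q6 and H2-Q8. The nearest 10 genes with a probe set on each side were compared in the order of the gene table of GRCm38.p6, leaving out H2-Q8 and H2-Q9, whose coordinates on chromosome 17 lie apart from the others there. In immunized mice none of the 46 probe sets of these 20 genes was called, against 0.12% of all probe sets. Their differences ranged from -0.31 to 0.43. In naïve mice 1 of the 46 was called, against 4.39% of all, and the differences ranged from -0.30 to 1.06. The called probe set was 1 of 2 of Tcf19 and it was higher in BALB/cByJ. H2-D1, the neighbour on one side, ranged from -0.31 to 0.15 over its 10 probe sets outside the Qa members in immunized mice. Pou5f1, a transcription factor of pluripotent cells on the other side, was at 0.13 in immunized and 0.15 in naïve mice.

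**Figure D4:**
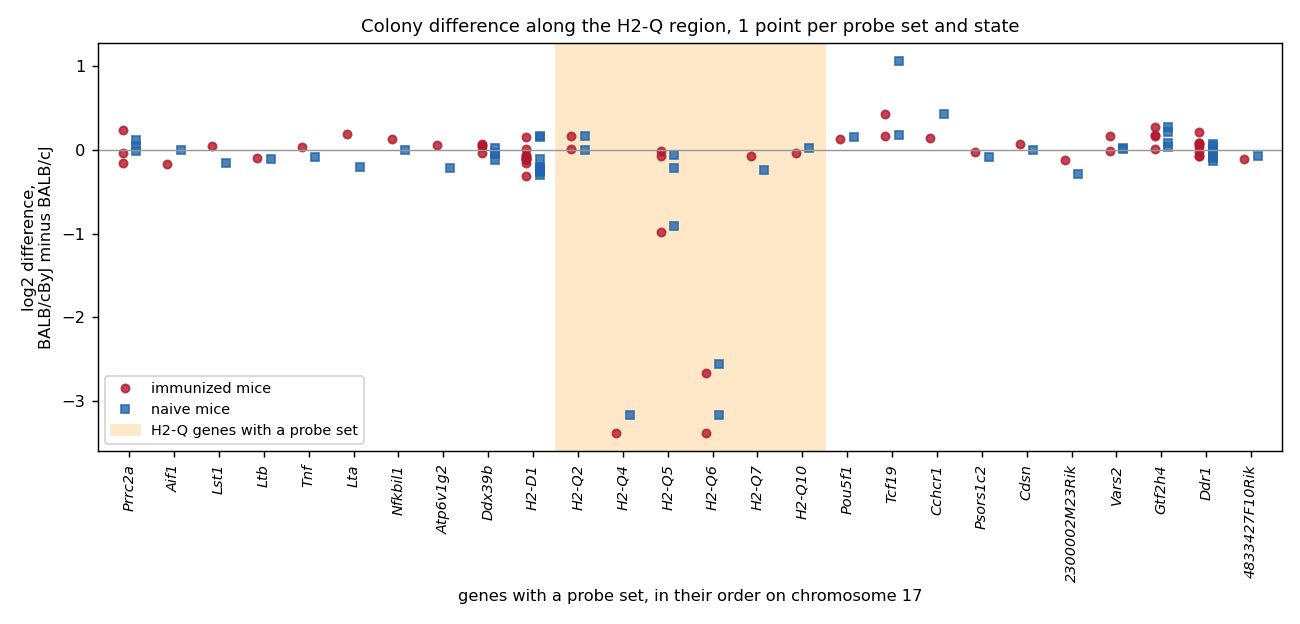
Colony difference (vertical axis, log2, BALB/cByJ minus BALB/cJ) of each probe set of the H2-Q genes (shaded) and of the nearest 10 genes with a probe set on each side, in gene order on chromosome 17; circles, immunized mice; squares, naïve mice. A shared probe set is drawn at each of its genes, and the points below -2 belong to the probe sets shared by H2-Q4, H2-Q6 and H2-Q8.

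Other genes of the class I pathway were compared by lists. The classical genes H2-K1 and H2-D1, outside the shared probe sets, had 14 probe sets, of which none was called between the colonies in either state, with medians of -0.10 in immunized and -0.23 in naïve mice. β2-microglobulin (B2m), the light chain of class I, was between -0.10 and 0.01 in immunized BALB/cByJ and between 0.04 and 0.17 in immunized BALB/cJ mice. In naïve mice it was between -0.33 and -0.04 in BALB/cByJ and between -0.00 and 0.09 in BALB/cJ. Nlrc5, the transactivator of class I genes, was between -0.17 and 0.02 in immunized BALB/cByJ and between 0.00 and 0.14 in immunized BALB/cJ mice, and between -0.46 and -0.00 in naïve BALB/cByJ and between -0.10 and 0.13 in naïve BALB/cJ mice. None of 22 probe sets of peptide loading and assembly genes (such as Tap1, a subunit of the peptide transporter), of 9 of the immunoproteasome and of 24 of class I transcription factors was called between the colonies in either state. The same held for 12 probe sets of class I-like genes elsewhere, such as Cd1d1 and Fcgrt.

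In the remaining lists, cell type markers apart, calls between the colonies were made in naïve mice and not in immunized mice. Over all probe sets 2.68% were called higher and 1.71% lower in naïve mice, or 4.39% together, against 0.12% in immunized mice. The difference of responses between the colonies held 0 calls. Of 13 probe sets of T and M region class I genes, 1 was called higher in naïve BALB/cByJ mice: H2-T24, at 0.74 (SE 0.171). Of 53 probe sets of GPI anchor synthesis genes, 5 were called higher, from Pigq and Piga, which belong to the enzyme complex of the first step. Piga was at 0.74 (SE 0.155), and the Pigq probe set with the widest difference at 1.25 (SE 0.257). Of 26 probe sets of class I receptors, 1 was called lower: Klra5, a Ly49 family receptor, at -0.41 (SE 0.0747). Of 22 probe sets of type I interferon response genes, 2 were called higher, those of the antiviral Rsad2 at 1.32 (SE 0.333) and of the ubiquitin-like Isg15, shared with Gm9706, at 1.11 (SE 0.271). Of 22 of the interferon-γ response, 1 was called lower, Ciita, the class II transactivator, at -0.36 (SE 0.0746), and of 19 of MHC class II, 2 were called lower, both of H2-Ab1, at -0.37 (SE 0.0773) and -0.35 (SE 0.0811). Over both states together, 6 probe sets of GPI anchor synthesis and 4 of the type I interferon response were called higher, against 3.04% of all probe sets. They came from 2 of 21 genes (Pigq and Piga) and 2 of 17 genes (Rsad2 and Isg15), so several read the same gene. Calls of lower values, against 1.58% of all, were added for Klra9 and Klra3 (1 shared probe set, -0.50, SE 0.0784) and Klrc1 (-0.65, SE 0.156). Such calls were also added for H2-DMb1 and H2-DMb2 (2 shared probe sets, -0.23 and -0.26). None of these lists, cell type markers apart, held a limma call for immunization in either colony. Markers of several cell types moved with these calls. Of the erythroid genes, 5 of 6 were called higher in naïve BALB/cByJ mice. Siglech of the dendritic list (0.52) and Prss2 of the pancreas acinar list (0.98 and 0.95 on 2 probe sets) were also called higher there. Called lower there were Fcer2a of the B cell list (-0.43), Prf1 of the NK list (-0.56) and Cd83 (-0.55) and Cd207 (-1.01) of the dendritic list. Cd207 was also called lower in immunized mice (-1.02). Over both states together, Prf1 (-0.46), Ncr1 (-0.48) and Gzma (-0.56) of the NK list and Cd207 (-1.02) were called lower. Of the erythroid genes, 4 of 6 were called higher over both states. With immunization, limma called Cd83 higher in BALB/cByJ mice (0.63, SE 0.0965). Over both colonies it called Camp (1.55) and Ngp (1.32) of the neutrophil list higher. The part of these markers in the calls was not tested.

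Few genes of the whole array had values close to those of the H2-Q6, H2-Q8 and H2-Q4 probe set in both direction and size. Likeness was taken as the root mean square (RMS) difference of the values over the 12 arrays, where 0 means identical values. It depends on the size of the step. A probe set that separates the colonies by less, as H2-Q5 probe set A does, is therefore scored as less alike. Among 34941 probe sets that name 1 gene outside the Qa region, 5 had an RMS difference under 1, and the median was 1.67. They were 2 probe sets of Arl2bp, a binding partner of the GTPase ARL2, at 0.392 and 0.396, Otud3, a deubiquitinating enzyme, at 0.486, St6galnac5, a sialyltransferase, at 0.697, and Gp2, a glycoprotein that binds bacteria, at 0.900. Among the members, the probe set of H2-Q6 and H2-Q8 was at 0.406, and H2-Q5 probe set A at 1.22. The other 6 were at 1.59 to 1.71. The mean of Otud3, for example, was -2.16 in immunized BALB/cByJ against 1.62 in immunized BALB/cJ mice.

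Cell type markers also moved with the groups. The median of the erythroid markers was between -0.11 and 0.51 in immunized BALB/cByJ and between -1.08 and 0.17 in immunized BALB/cJ mice. In naïve mice it was between 0.29 and 0.67 in BALB/cByJ and between -1.55 and -0.34 in BALB/cJ. Pigment cell markers reached 1.71 in immunized BALB/cByJ and 2.65 in immunized BALB/cJ, and 0.04 in naïve BALB/cByJ and 3.27 in naïve BALB/cJ mice. The medians of the B cell markers (-0.13 to 0.02 against -0.06 to 0.11) and T cell markers (-0.05 to 0.05 against -0.18 to 0.14) overlapped between the immunized BALB/cByJ and BALB/cJ groups, in which the differences of the 3 H2-Q probe sets were -3.38, -2.67 and -0.98. Those of the NK cell markers did not (-0.39 to -0.22 against 0.01 to 0.13). In the naïve BALB/cByJ and BALB/cJ groups the medians of the B cell markers (-0.12 to -0.02 against 0.04 to 0.17) and of the dendritic markers (-0.14 to -0.06 against 0.04 to 0.15) did not overlap, and those of the T cell markers (-0.09 to 0.03 against -0.02 to 0.06) and NK cell markers (-0.30 to 0.17 against 0.03 to 0.47) did. The dendritic medians overlapped in immunized mice (-0.03 to 0.05 against -0.02 to 0.07), but Cd207, the langerin of dendritic cells, was at -1.02 in immunized and -1.01 in naïve mice. The part of these markers in the H2-Q differences was not tested. With the erythroid mean as a covariate the probe set of H2-Q6, H2-Q8 and H2-Q4 was at -3.18 in immunized and -2.54 in naïve mice, and that of H2-Q6 and H2-Q8 at -2.54 and -2.15. H2-Q5 probe set A was at -0.91 in immunized and -0.69 in naïve mice, and its call in naïve mice was lost. Fewer cells of a type and less RNA per cell cannot be told apart in whole spleen. A lower amount of a transcript and a difference between the colonies in the probed sequence cannot be told apart either.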

How the data were processed

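Spleen RNA of 12 female mice, 3 animals per group, was hybridized to Affymetrix arrays. For the values on a log2 scale, the authors used GeneSpring to quantile-normalize the arrays and to summarize the probes by median polish (robust multi-array average), then set the median of every probe set over the 12 arrays to 0 (within 5e-07 in the deposited values). The scale is stated as logarithmic only and was read as log2, the usual output of the procedure, so folds rest on this reading. The number of arrays limits the precision.

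After removal of 64 control probe sets from 45101, 45037 were tested with limma 3.58.1 in R 4.3.3 (1 mean per group, eBayes) in 1 fit over all 12 arrays, with Benjamini-Hochberg adjustment over all probe sets. Called means an adjusted p under 0.05. Gene names came from the platform annotation. The members, gene lists and tests were chosen with earlier results of these data known. Of the lists, the called genes with the smallest p were named, up to 4 per list and contrast, and the motifs and the shared run were chosen after the promoters were seen. Gene order came from the GRCm38.p6 gene table, which lists all 9 genes of the rule. The fit was tested on simulated data with the spread within groups of these arrays. Of 100 probe sets given a log2 change of 0.5, it called 56 for immunization in BALB/cByJ, 45 in BALB/cJ and 14 for the difference of responses. For a change of 1 it called 89, 90 and 76 in the same order. The simulated noise was independent between probe sets, so deviations shared within an array were absent. These counts can therefore overstate what the real arrays allow. In the real arrays 58 probe sets were past 2-fold for immunization in BALB/cJ and 158 for the difference of responses. Limma called 0 in each. For immunization in BALB/cByJ 78 were past 2-fold and 23 were called. Immunized arrays carry sample numbers 29 to 33 or 48 to 50 and naïve arrays 10 to 15; immunization and these runs cannot be told apart. Alternatives were the one-way analysis of variance with Student-Newman-Keuls comparisons of the methods, quantile normalization, median centring, robust variance, array weights, the compared groups alone, the replicate number or the run of sample numbers in the model, a fold of 1.2, the level of genes, the erythroid mean as a covariate and fewer arrays. Upstream sequences were aligned with Biopython 1.88. Python 3.11.15, pandas 2.3.3 and matplotlib 3.10.9 were used.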

Additional observations from a re-analysis of the deposited data

How the results depend on the processing

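The 2 probe sets of H2-Q6 and H2-Q8 stayed lower in BALB/cByJ mice in all alternatives run, with log2 differences of -3.58 to -3.13 and -2.75 to -2.54 in immunized and -3.55 to -2.54 and -2.80 to -2.15 in naïve mice. The H2-Q5 probe set that differed between the colonies ranged from -1.10 to -0.91 in immunized and from -1.04 to -0.66 in naïve mice. No alternative called a member with immunization or in the difference of responses. Over the limma adjusted p and the Student-Newman-Keuls p of these alternatives, the lowest for immunization was 0.0511 in BALB/cJ, close to the threshold, and 0.136 in BALB/cByJ. Without 4 arrays rich in pigment cell transcripts (naïve BALB/cJ replicates 1 and 2, immunized BALB/cJ replicate 1 and immunized BALB/cByJ replicate 2), which leaves naïve BALB/cJ with 1 array, 0 members were called between the naïve colonies, although the 2 probe sets of H2-Q6 and H2-Q8 were at -2.91 and -2.42. The median immunization difference in BALB/cJ was then 0.111. Restricted to the 4 probe sets that name 1 gene, which leaves out those of H2-Q6 and H2-Q8, 1 was called in each state, 0 were past 2-fold and the naïve median was -0.031. At the level of genes, with 3 genes, 0 were called in immunized and 1 in naïve mice, 0 were past 2-fold, the naïve colony median was -0.001 and the BALB/cJ immunization median 0.105. The naïve colony median was -0.041 with the erythroid mean as a covariate. The immunized colony median was -0.170 without 4 arrays rich in pancreatic or heat shock transcripts. These include every immunized array numbered 48 to 50, and immunized BALB/cJ is left with 1 array. Loss of these arrays for their transcripts and loss of that run cannot be told apart. With the erythroid mean, H2-Q5 lost its call between naïve colonies. With 1 array left out, the colony medians ranged from -0.125 to -0.009 in immunized and from -0.260 to -0.110 in naïve mice, lowest in size without naïve BALB/cByJ replicate 3. The immunization medians then ranged from 0.005 to 0.151 in BALB/cByJ, highest without naïve BALB/cByJ replicate 1, and from -0.045 to 0.073 in BALB/cJ mice. The numbers called stayed at 3 in each state and those past 2-fold at 2 to 3. Apart from the smaller sets of probe sets and arrays, the cause of these shifts was not tested. The replicate numbers are those of different animals. Their deviations from the group means had a correlation over 0.1 in 9 of 18 pairs with the same number (median 0.1035) and in 9 of 36 pairs with different numbers (median -0.0455). In no contrast tested here were all 3 same-number pairs over 0.1, so the numbers were not taken as pairing the arrays. Between the naïve colonies these pairs were at 0.296, 0.098 and 0.35, so this choice rests on the cut used. With the replicate number as a block, 3 members were called between the colonies in each state and 0 with immunization, as without it, and the median colony differences were -0.069 in immunized and -0.216 in naïve mice. Over all probe sets the block moved the calls between naïve colonies to 2247 from 1976 and those for immunization in BALB/cByJ to 12 from 23. The analysis of variance called 67 of all probe sets between naïve colonies, the erythroid covariate 27 and array weights 5950. For immunization in BALB/cJ mice, where limma called 0, the analysis of variance called 28 and array weights 651.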
